A study of Mus musculus with 3 samples.

Results

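The genes described here are 8 targets of the liver X receptors (LXR) and exporters of sterols, taken by symbol from the 33696 genes counted: Abca1, Abcg1, Apoe, Apoc1, Pltp, Mylip, Nr1h3 and Lpcat3. All 8 were found, and all 8 reached 10 CPM (UMIs per 1e6 UMIs) in macrophages of at least 1 library. The cells were immune cells washed out of the airspaces of wild-type C57BL/6J mice, 12 weeks old, kept for 3 h in filtered air or in ozone at 1 ppm or 1.5 ppm. They were collected 22 to 24 h after exposure and profiled by droplet single-cell RNA sequencing from the 3' end of transcripts, with molecules counted by unique molecular identifiers, the UMIs. The cells of 3 to 4 mice were pooled in each group before the library was made. Each group is therefore 1 library without replicates, no test between groups was possible, and every interval given is a 95% interval for counting error only.

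LXRs are nuclear receptors that are activated by oxidised cholesterol and by late intermediates of cholesterol synthesis, and that switch on genes for removing sterol from the cell. A second factor, SREBP2, works in the opposite sense: it is held inactive while membranes hold enough cholesterol, and turns on the enzymes of cholesterol synthesis when they do not. Alveolar macrophages take up surfactant, a lipid film rich in phospholipid and cholesterol, and depend on sterol export to clear it. Loss of Abcg1 is known to load these cells with lipid. The comparison of the members with sterol synthesis genes sets both arms of this system side by side in the same cells.

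Promoters are shown for the 3 members among those 1.5-fold lower at 1.5 ppm than in air for which a sequence was at hand. They are from RefSeq (build GRCm38.p6), run from 250 bases before to 50 bases after the annotated start, and are written 5′ to 3′ on the strand of the gene. The capitals mark a TATAAA box and, in Abca1, the nearest match to the direct repeat that LXR binds with its partner RXR (DR4, AGGTCA repeated after a gap of 4 bases). The windows are chr4:53159846-53160145 (minus strand) for Abca1, chr2:164857659-164857958 (minus strand) for Pltp and chr13:45389492-45389791 (plus strand) for Mylip.
Abca1: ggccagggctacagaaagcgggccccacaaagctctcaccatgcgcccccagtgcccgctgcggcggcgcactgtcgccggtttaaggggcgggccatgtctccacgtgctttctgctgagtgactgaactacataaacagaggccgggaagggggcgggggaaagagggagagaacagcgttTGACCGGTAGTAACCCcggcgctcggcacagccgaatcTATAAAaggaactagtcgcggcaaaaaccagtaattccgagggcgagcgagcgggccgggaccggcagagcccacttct
Pltp: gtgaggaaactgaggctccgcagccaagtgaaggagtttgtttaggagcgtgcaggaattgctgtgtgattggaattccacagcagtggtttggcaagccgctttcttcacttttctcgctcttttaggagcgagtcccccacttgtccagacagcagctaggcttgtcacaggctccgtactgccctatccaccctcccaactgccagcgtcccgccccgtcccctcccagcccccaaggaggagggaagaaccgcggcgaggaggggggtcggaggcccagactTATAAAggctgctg
Mylip: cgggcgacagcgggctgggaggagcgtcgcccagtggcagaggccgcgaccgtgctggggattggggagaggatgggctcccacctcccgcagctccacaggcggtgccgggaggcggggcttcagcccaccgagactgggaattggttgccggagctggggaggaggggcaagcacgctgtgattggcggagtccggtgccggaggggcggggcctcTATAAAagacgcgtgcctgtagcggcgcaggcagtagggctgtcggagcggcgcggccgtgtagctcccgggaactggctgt
Of the 8 members 6 had a promoter in the table, 9 promoters in all. With up to 3 mismatches and both strands searched, DR4 matched in Abca1 alone of those 6 genes. The match had 3 mismatches, lay on the opposite strand and began 67 bases upstream of the start (chr4:53159947-53159962). The same search matched 1 of 9 member promoters (11.1%), 6 of 18 promoters of sterol synthesis genes (33.3%) and 21.9% of 32851 promoters in all. The match therefore describes the letters alone, and whether LXR binds there was not tested. TATAAA was 29 bases upstream of the start in Abca1 and 32 bases upstream in Mylip, and 36 bases downstream of the annotated start in Pltp. It also occurred in Apoe, and on either strand it was in 13.6% of all promoters. It was in 0 of 18 promoters of sterol synthesis genes. The sterol response element that SREBP2 binds, searched as TCACNCCAC on both strands, was in 0 of 9 member promoters, in 1 of 18 sterol synthesis promoters (Hmgcs1) and in 1.24% of all.

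Of 5307, 3233 and 7269 barcodes for air, 1 ppm and 1.5 ppm, 3479, 2241 and 6577 passed the filters, with 11986 to 15743 UMIs per cell at the median. The limit of 10% mitochondrial UMIs removed 34.2%, 30.6% and 9.07% of barcodes, and the cells that were kept had median mitochondrial shares of 4.08%, 3.93% and 2.24%. These shares move with the 1.5 ppm library. In macrophages with 2.5 to 4% mitochondrial UMIs, the log2 ratios of 1.5 ppm over air were -0.77 for Abca1, -0.63 for Abcg1, -1.04 for Pltp and -0.83 for Mylip. The libraries shared between 1 and 7 cell barcodes in pairs. Alveolar-macrophage-like cells, named by Chil3, Ear1, Mrc1, Siglecf and other markers, were 3312, 2131 and 5647 cells in 13 clusters. The cluster led by Dnah11, Rbfox1 and Lepr was their largest in air and at 1 ppm, and the cluster led by Gm27008, Epcam and Elovl6 at 1.5 ppm. Epcam is on the epithelial marker list, and it was found in 19.6 to 74.9% of the cells of each of the 13 clusters. In the cluster with Epcam among its leading genes, the epithelial genes Cyp2f2, Foxj1 and Krt8 were found in 0.630%, 0.229% and 0.115% of cells. Scgb1a1 was found in 16.4% of its cells, against 16.4 to 31.8% over the 13 clusters, and Cfap43 in 7.45%, against 2.72 to 8.17%.

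At 1.5 ppm the exporters, the phospholipid transfer protein and the ubiquitin ligase were lower in macrophages than in air, while the 1 ppm library stood close to air for these genes. Members at least 1.5-fold lower than in air were 0 of 8 at 1 ppm, where 0.844% of 8532 genes were that far lower, and 4 of 8 at 1.5 ppm (Abca1, Abcg1, Pltp and Mylip), where 3.01% of 8657 genes were. Members at least 1.5-fold higher than in air were 2 of 8 at 1 ppm (Apoe and Apoc1), against 0.492% of all genes, and 0 of 8 at 1.5 ppm, against 7.77%. The same 4 lower members, and the 2 higher ones at 1 ppm, were found without the cluster that has Epcam among its leading genes. Both ozone libraries were set against the same air library. The median log2 ratio of the 8 members was 0.03 at 1 ppm and -0.58 at 1.5 ppm, beside -0.06 and -0.09 for all genes tested. Between the ozone libraries 6 of 8 members were at least 1.5-fold lower at 1.5 ppm than at 1 ppm, against 1.66% of 8626 genes, and 0 were higher, against 5.67%. At 2-fold, Apoc1 alone of 8 was higher at 1 ppm than in air (0.082% of genes, with 0 members and 0.176% lower). Pltp alone was 2-fold lower at 1.5 ppm than in air (0.335%, with 0 members and 1.74% higher), and against 1 ppm both Pltp and Apoc1 were (0.232%, with 0 members and 2.13% higher). The plot of member levels by library gives these values with their intervals.

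**Figure D1:**
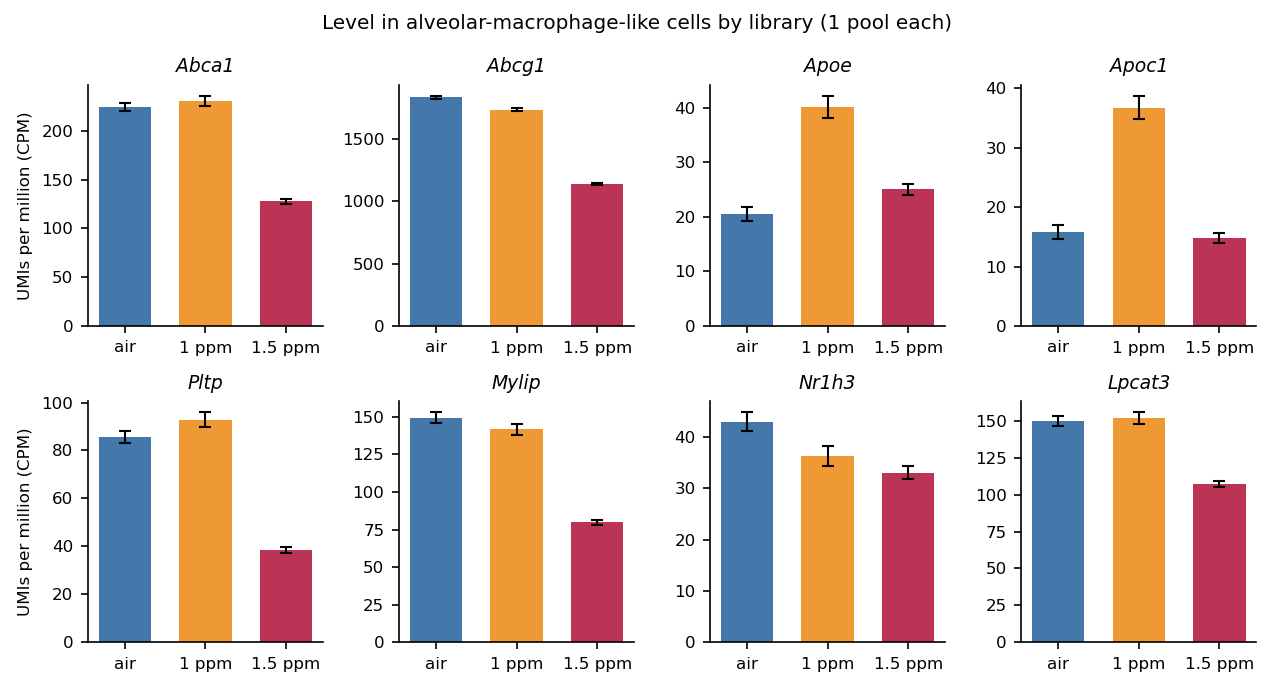
Level of each member (CPM, 1 panel per gene, axis from 0) in alveolar-macrophage-like cells of the air, 1 ppm and 1.5 ppm libraries; bars are the summed UMIs of 1 library and error lines are 95% Poisson intervals. Abca1, Abcg1, Pltp and Mylip were lowest at 1.5 ppm, while Apoe and Apoc1 were highest at 1 ppm.

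Abca1, a transporter that loads cholesterol and phospholipid onto apolipoprotein A-I, was at 225 CPM in air (interval 221 to 229), 231 CPM at 1 ppm (226 to 236) and 128 CPM at 1.5 ppm (125 to 130). The air and 1 ppm intervals overlapped, and the 1.5 ppm library lay below both. Its level at 1.5 ppm was 0.568 times that of air (interval 0.553 to 0.583). Per cell, after thinning each cell to 5000 UMIs, 47.6% of cells in air, 51.2% at 1 ppm and 32.8% at 1.5 ppm had an Abca1 UMI. Without thinning these shares were 63.1%, 65.9% and 47.5%. Fewer cells with a UMI therefore went with the lower level, and the order of the libraries was the same in both shares.

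Abcg1, which moves sterol toward lipoprotein particles, was at 1835 CPM in air (1823 to 1847), 1736 CPM at 1 ppm (1723 to 1750) and 1139 CPM at 1.5 ppm (1132 to 1146). None of these intervals overlapped, and the ratio of 1.5 ppm to air was 0.621 (0.615 to 0.626). Nearly every macrophage held an Abcg1 UMI at 5000 UMIs per cell, 97.9%, 98.7% and 96.6% in the order air, 1 ppm and 1.5 ppm. The lower level was in the number of molecules in each cell, with means of 9.22, 9.10 and 6.07 Abcg1 UMIs. Abcg1 made up most of the summed UMIs of the 8 members, so their sum follows it, and sums without it are given in the closing section.

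Pltp, a secreted protein that transfers phospholipid between lipoproteins, was at 85.7 CPM in air (83.1 to 88.3), 92.7 CPM at 1 ppm (89.6 to 95.8) and 38.6 CPM at 1.5 ppm (37.3 to 39.9). Pltp had the lowest ratio of the 8 members between 1.5 ppm and air, 0.451 (0.431 to 0.471). Cells with a Pltp UMI, at 5000 UMIs each, were 27.1%, 31.7% and 16.03%. Unthinned, the shares were 51.1%, 57.2% and 33.3%.

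Mylip, a sterol-induced ubiquitin ligase that limits lipoprotein uptake, was at 149 CPM in air (146 to 153), 142 CPM at 1 ppm (138 to 145) and 79.8 CPM at 1.5 ppm (78.0 to 81.7). Its ratio at 1.5 ppm to air was 0.534 (0.517 to 0.552), and the share of thinned cells with a UMI was 45.2%, 44.8% and 28.2% (69.8%, 70.4% and 49.8% unthinned). The air and 1 ppm libraries lay close together, and the 1.5 ppm library lay below both without overlap.

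Nr1h3, which encodes the receptor LXR alpha itself, was at 42.9 CPM in air (41.1 to 44.7), 36.3 CPM at 1 ppm (34.4 to 38.3) and 33.0 CPM at 1.5 ppm (31.8 to 34.2). Air lay above both ozone libraries, which stood next to each other with a narrow gap between intervals, and the ratio of 1.5 ppm to air was 0.770 (0.728 to 0.815). Lpcat3, an enzyme that places polyunsaturated fatty acids into membrane phospholipids, was at 150 CPM in air (146 to 153), 152 CPM at 1 ppm (148 to 156) and 107 CPM at 1.5 ppm (105 to 110). Air and 1 ppm overlapped, and 1.5 ppm lay below them with a ratio to air of 0.716 (0.695 to 0.739). Neither gene passed 1.5-fold. Thinned cells with a UMI were 17.8%, 15.5% and 14.6% for Nr1h3 and 49.9%, 51.9% and 40.9% for Lpcat3.

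The apolipoproteins followed another order. Apoe, a lipid carrier secreted by macrophages, was at 20.5 CPM in air (19.3 to 21.8), 40.1 CPM at 1 ppm (38.1 to 42.2) and 25.05 CPM at 1.5 ppm (24.0 to 26.1). Apoc1, a small apolipoprotein encoded next to Apoe, was at 15.8 CPM in air (14.7 to 16.9), 36.7 CPM at 1 ppm (34.8 to 38.7) and 14.8 CPM at 1.5 ppm (14.0 to 15.6). Both were highest at 1 ppm, by ratios to air of 1.96 (1.81 to 2.12) for Apoe and 2.32 (2.13 to 2.54) for Apoc1. At 1.5 ppm the Apoe ratio to air was 1.22 (1.13 to 1.32) and the Apoc1 interval included 1 (0.936, 0.856 to 1.02). The Apoe direction at 1.5 ppm turned among cells with 2.5 to 4% mitochondrial UMIs, to a log2 ratio of -0.16 from 0.29, and on the scale of genes of like span, to -0.02.

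Few macrophages carried either apolipoprotein. At 5000 UMIs per cell, 4.43%, 7.05% and 5.07% of cells had an Apoe UMI and 4.95%, 9.91% and 5.59% an Apoc1 UMI, in the order air, 1 ppm and 1.5 ppm. Unthinned, the shares were 7.70%, 10.8% and 8.91% for Apoe and 9.63%, 17.8% and 10.7% for Apoc1. The cells overlapped: of cells with an Apoe UMI, 29.9% in air, 41.9% at 1 ppm and 29.2% at 1.5 ppm also had an Apoc1 UMI, while of cells without Apoe 3.79%, 7.49% and 4.33% did. The highest count in 1 thinned cell was 11, 14 and 26 Apoe UMIs.

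Most Apoe outside the macrophage class sat in 1 small cluster. That cluster, led by C1qa, C1qc and C1qb, held 1.29% of air cells, 1.03% of 1 ppm cells and 1.44% of 1.5 ppm cells. It carried 55.3%, 13.0% and 53.6% of all Apoe UMIs, and the alveolar-macrophage-like class carried 44.4%, 86.4% and 43.8%. Cells there with 10 or more Apoe UMIs were 17 of 45 in air, 3 of 23 at 1 ppm and 39 of 95 at 1.5 ppm. Over all kept cells the 1 ppm library was therefore not the highest for Apoe: the level was 45.1 CPM in air, 45.6 CPM at 1 ppm and 54.7 CPM at 1.5 ppm. Macrophages with 3 or more Apoe UMIs had a C1q UMI in 1 of 39, 0 of 71 and 0 of 78 cells, and the counts of 0 allow shares of up to 4.23% at 1 ppm and 3.85% at 1.5 ppm. For the other 7 members the alveolar-macrophage-like class held 96.9 to 99.4% of the UMIs of each library. Of the UMIs of all genes it held 49708522 of 50808279 in air, 37432056 of 38147865 at 1 ppm and 89713756 of 93824775 at 1.5 ppm. The shares of these 7 members were therefore near that of all genes.

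**Figure D2:**
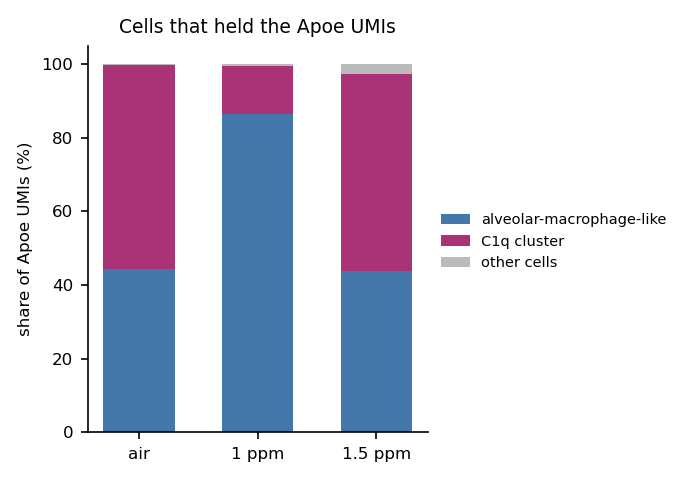
Share of each library's Apoe UMIs (percent, axis from 0) held by alveolar-macrophage-like cells, by the cluster led by C1q genes and by other cells. The C1q cluster held 55.3% in air, 13.0% at 1 ppm and 53.6% at 1.5 ppm.

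Free RNA in a droplet can give a UMI to a cell that does not express the gene, so the shares were set beside those of other classes after thinning all cells to 1000 UMIs. The neutrophil-like cells were nearly all of the 1.5 ppm library, so both classes are given within it, 79 neutrophil-like and 5645 alveolar-macrophage-like cells. Before thinning, their median depths there were 2289 and 13099 UMIs. Neutrophil-like cells had an Abca1 UMI in 2.53% of cells against 10.9% of macrophages, an Abcg1 UMI in 20.3% against 64.3%, and an Lpcat3 UMI in 1.27% against 10.6%. For these 3 genes the intervals did not overlap, and the macrophage shares were above those of the neutrophil-like cells. The shares were 1.27% and 3.90% for Pltp, 1.27% and 2.91% for Nr1h3 and 1.27% and 1.68% for Apoe, with neutrophil-like intervals that reached 6.85%. For Mylip the neutrophil-like share was 8.86% (3.64 to 17.4%) and the macrophage share 7.48% (6.80 to 8.19%), so these intervals overlapped. Migratory-dendritic-like cells had a Mylip UMI in 0 of 47 cells at 1.5 ppm, which allows a share of up to 6.38%. Over the 3 libraries they had it in 1 of 86 (1.16%, 0.0294 to 6.31%), against 10.3% of macrophages (9.75 to 10.9%). Whether the Mylip UMIs of neutrophil-like cells were free RNA was not tested. Apoc1 was found in 0 of 79 neutrophil-like cells, which allows a share of up to 3.80%, against 1.47% of macrophages, so a difference was not detectable at this depth. In the C1q cluster, over the 3 libraries and at 1000 UMIs per cell, Apoe was found in 40.7% of cells. Apoc1 was found there in 0 of 162, which allows a share of up to 1.85%. Without thinning, 6 of 163 cells of this cluster had an Apoc1 UMI, at 12.4 CPM (7.88 to 18.7).

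The wider sterol genes give the setting. Of all 8657 genes tested at 1.5 ppm against air, 5199 were below air. At least 1.5-fold lower were 3.01% of them, and 7.77% were at least 1.5-fold higher. Of 17 other LXR targets and receptor partners 11 reached 10 CPM, and at 1.5 ppm 9 of these stood below air and 3 were at least 1.5-fold lower. These 3 were Lpl, which frees fatty acids from lipoproteins (2326 CPM in air and 1277 CPM after 1.5 ppm), Arl4c (32.5 and 18.6 CPM) and Smpdl3a (164 and 103 CPM). Fasn, the fatty acid synthase, had 13.0 CPM in air and 18.8 CPM after 1.5 ppm (ratio 1.45). The median log2 ratio of the 11 genes was -0.35. Of 15 genes of sterol handling 13 were tested, 9 were below air, a share near that of all genes, and 0 passed 1.5-fold in either direction. Their furthest were Nceh1, a cholesteryl ester hydrolase (log2 ratio -0.48), Stard3 (-0.34), the lysosomal lipase gene Lipa (-0.27) and Cav1 (-0.26).

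Sterol synthesis genes stood on the other side. Of 20 enzymes 17 were tested, all 17 were above air at 1.5 ppm, and 13 were at least 1.5-fold higher, with a median log2 ratio of 0.83. Their summed level was 482 CPM in air, 583 CPM at 1 ppm and 906 CPM at 1.5 ppm, while the 8 members together were at 2524, 2466 and 1566 CPM. The furthest were Idi1 (log2 ratio 1.44), Fdps (1.40), Sqle (1.38) and Cyp51 (1.33). Of 9 SREBP2 control genes and targets 8 were tested, with 5 above air, 3 below and a median log2 ratio of 0.20. Among them the sterol carrier Stard4 (1.09) and Insig1 (0.74) passed 1.5-fold upward. Srebf2, the gene of SREBP2 itself, had a log2 ratio of 0.33. Transcripts of the G2 and M phases moved with the 1.5 ppm library too, at 625, 579 and 1339 CPM in the order air, 1 ppm and 1.5 ppm, and 18 of 20 of these genes were at least 1.5-fold higher than in air, led by Mki67 (1.57), Birc5 (1.48), Hmmr (1.38) and Prc1 (1.38). Leaving out macrophages with 3 or more such UMIs, counted before thinning, left 2394 cells in air, 1528 at 1 ppm and 3482 at 1.5 ppm. This limit depends on a cell's depth and is not a call of cycling cells. Without the cells left out, the log2 ratios of 1.5 ppm over air were -0.89 for Abca1, -1.11 for Pltp and -0.88 for Mylip. Abcg1, at -0.58, was no longer past 1.5-fold.

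Within single libraries the members and the sterol synthesis genes were compared cell by cell. Macrophages of at least 5000 UMIs (3254, 2098 and 5346 cells, with 58, 33 and 301 shallower cells left out) were thinned to 5000 and grouped by their UMIs of the 20 synthesis genes: 0 to 1 (low), 2 to 3 (middle) and 4 or more (high). The high group took 19.5% of these cells in air, 23.2% at 1 ppm and 41.4% at 1.5 ppm. The summed level of the 8 members was 2945, 2549 and 1335 CPM in the low, middle and high groups of air. It was 3081, 2658 and 1374 CPM at 1 ppm, and 2246, 1797 and 1098 CPM at 1.5 ppm. In each library the members stood lower where synthesis UMIs were more, and the high group was at 0.453 times the low group in air (0.439 to 0.468), 0.446 times at 1 ppm (0.430 to 0.463) and 0.489 times at 1.5 ppm (0.478 to 0.5003). Cells of 1 library share its depth, its free RNA and its mice, so these ratios describe 3 libraries and carry no test.

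**Figure D3:**
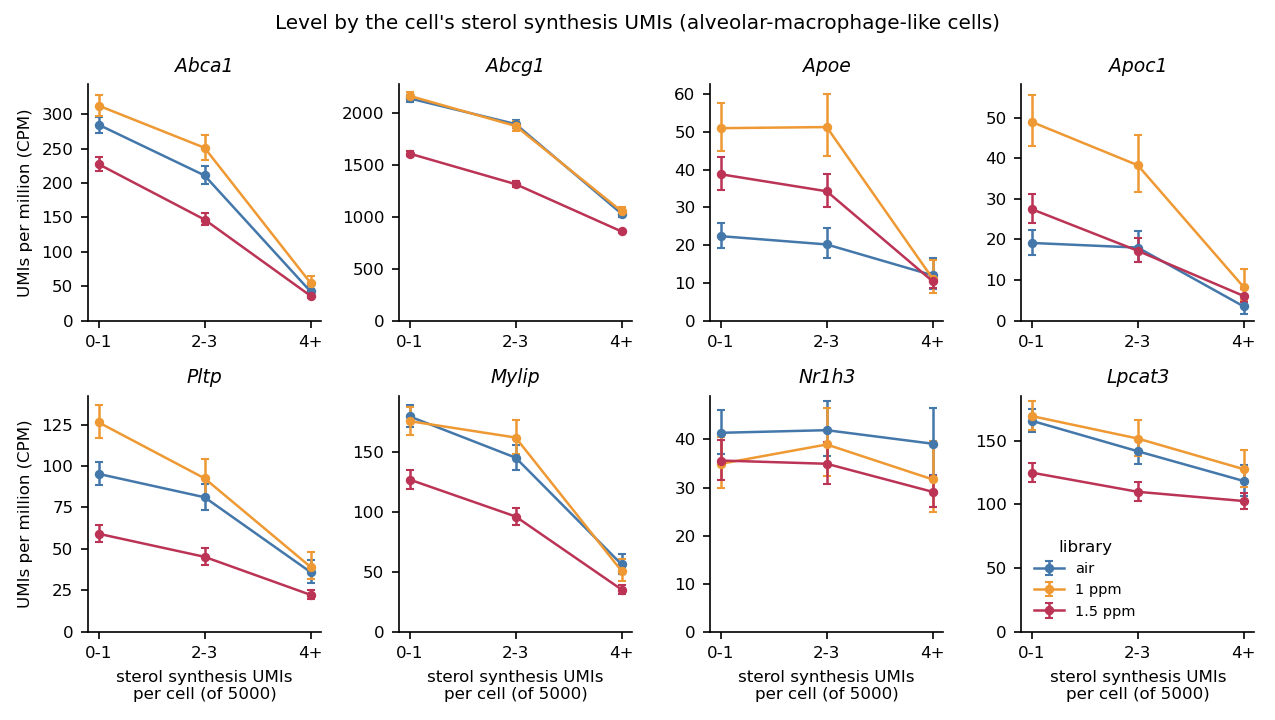
Level of each member (CPM) in alveolar-macrophage-like cells thinned to 5000 UMIs, by sterol synthesis UMIs per cell (low 0 to 1, middle 2 to 3, high 4 or more), 1 line per library with 95% Poisson intervals as error bars. Abca1 in the high group was at 0.148, 0.175 and 0.158 times its low group in air, 1 ppm and 1.5 ppm, while Nr1h3 was nearly level.

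Abca1 had the lowest ratio of the 8 members in air and at 1.5 ppm. In air it was at 285 CPM in the low group, 211 CPM in the middle group and 42.3 CPM in the high group, a ratio of high to low of 0.148 (0.124 to 0.177). At 1 ppm the groups stood at 313, 251 and 54.7 CPM (0.175, 0.146 to 0.209), and at 1.5 ppm at 227, 147 and 36.0 CPM (0.158, 0.142 to 0.176). The intervals of the 3 libraries overlapped. Apoc1, the other member below 0.25 in every library, had ratios of 0.181, 0.168 and 0.220, and its intervals overlapped those of Abca1 in all 3 libraries. Mylip had ratios of 0.313, 0.288 and 0.277, and Pltp had 0.378, 0.310 and 0.376. For Apoe the air ratio of 0.536 (0.367 to 0.764) stood above those of 1 ppm (0.218, 0.141 to 0.325) and 1.5 ppm (0.268, 0.215 to 0.333).

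Abcg1 lay in between, with ratios of 0.481, 0.486 and 0.534, from 2137 CPM in the low group of air to 1028 CPM in its high group. Lpcat3 differed less, at 0.714, 0.754 and 0.822. Nr1h3 was at 41.4, 41.9 and 39.1 CPM in the low, middle and high groups of air, a ratio of 0.945 whose interval included 1 (0.763 to 1.16). The 1 ppm ratio was 0.907 (0.684 to 1.19), and the 1.5 ppm ratio of 0.817 (0.695 to 0.960) lay below 1. In air and at 1 ppm the receptor transcript thus had the ratio nearest to 1 of the 8 members, and at 1.5 ppm it stood beside Lpcat3.

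With cells of like synthesis UMIs set side by side, the 1.5 ppm library was still below air, by less. The 8 members summed were at 0.763 times air in the low group (0.748 to 0.777), 0.705 in the middle group (0.688 to 0.722) and 0.823 in the high group (0.794 to 0.852), against 0.656 over all thinned cells. The thinned cells of each library were also weighted to the distribution of synthesis UMIs in air. The ratio of 1.5 ppm to air was then 0.785 for Abca1, against 0.586 in the same thinned cells without weights. The weighted ratio was 0.749 for Abcg1, 0.700 for Mylip, 0.834 for Nr1h3 and 0.776 for Lpcat3. Pltp, at 0.615, was then the 1 member at least 1.5-fold lower. Apoe was at 1.68 and Apoc1 at 1.30 times air under this weighting, which was chosen after seeing the data. The plot of ratios under 4 weightings sets these beside the unweighted values of all macrophages, not thinned, and beside cells of like mitochondrial share.

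**Figure D4:**
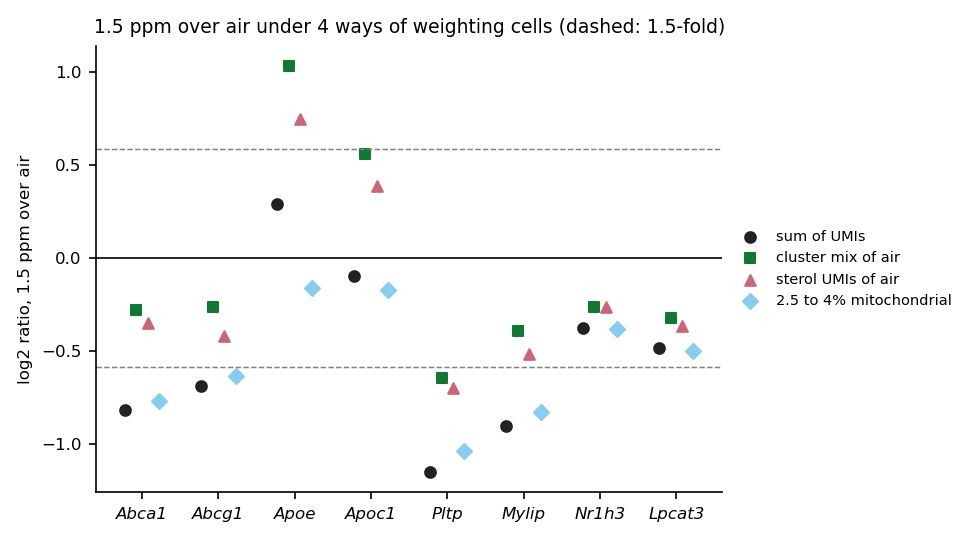
Log2 ratio of 1.5 ppm over air for each member in alveolar-macrophage-like cells under 4 ways of weighting cells (summed UMIs, the cluster mix of air, the synthesis UMIs of air, and cells of 2.5 to 4% mitochondrial UMIs alone); dashed lines mark 1.5-fold. Pltp lay below the lower line in all 4, while Abca1, Abcg1 and Mylip lay above it with sterol synthesis UMIs or the mix of clusters fixed at that of air.

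The macrophage clusters, made without the members and the listed genes, also differed in the members. With the 3 libraries pooled, all 8 members were highest in 1 cluster of 526 cells, led by Rgcc, Cxcr1 and Slc39a2. It had 216 cells from air, 208 from 1 ppm and 102 from 1.5 ppm. Its Lpcat3 interval (159 to 176 CPM) overlapped that of the cluster led by Dnah11 (159 to 168 CPM). Its Apoc1 interval (36.1 to 44.05 CPM) overlapped that of the cluster led by Acaa1b (34.9 to 40.9 CPM). Ranked within a library over clusters of at least 50 cells, the cluster led by Rgcc was highest for 6 of 8 members in air, 7 of 8 at 1 ppm and 7 of 8 at 1.5 ppm. Abca1 was at 348 CPM in its air cells, 384 CPM in those of 1 ppm and 289 CPM in those of 1.5 ppm, Abcg1 at 2362, 2311 and 1949 CPM, and Pltp at 149, 164 and 81.0 CPM. The exceptions were Apoe and Apoc1 in air, Nr1h3 at 1 ppm and Lpcat3 at 1.5 ppm. In air Apoe was highest in the cluster led by Cdc20 (46.7 CPM against 34.6 CPM) and Apoc1 in that led by Acaa1b (24.6 CPM against 22.4 CPM). At 1 ppm Nr1h3 was highest in the cluster led by Mt2 (53.9 CPM against 40.04 CPM), and at 1.5 ppm Lpcat3 in that led by Gm27008 and Lrrc4 (167 CPM against 122 CPM). The cluster led by Rgcc had the lowest sterol synthesis sum in each library, 294, 253 and 441 CPM.

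The cluster led by Il1b, Osm and Car4 had the highest sterol synthesis sum at 1 ppm (1668 CPM) and 1.5 ppm (1871 CPM). Its 889 cells were 39 from air, 139 from 1 ppm and 711 from 1.5 ppm, so a pooled level of it is mostly that of 1.5 ppm, and its air cells were too few to be ranked. At 1 ppm it was lowest for 6 of 8 members, among them Abca1 at 42.9 CPM, Abcg1 at 997 CPM, Pltp at 28.7 CPM and Mylip at 44.5 CPM. At 1.5 ppm it was lowest for 3 of 8, Abca1 at 52.2 CPM, Apoe at 7.61 CPM and Mylip at 38.4 CPM, while Pltp, at 20.8 CPM, was lower in the cluster led by the oxidative stress genes Slc7a11 and Hmox1 (19.8 CPM). That cluster was lowest for 6 of 8 members in air, with Abcg1 at 274 CPM and Lpcat3 at 75.4 CPM, and for 3 of 8 at 1.5 ppm, with Abcg1 at 433 CPM and Lpcat3 at 64.01 CPM.

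**Figure D5:**
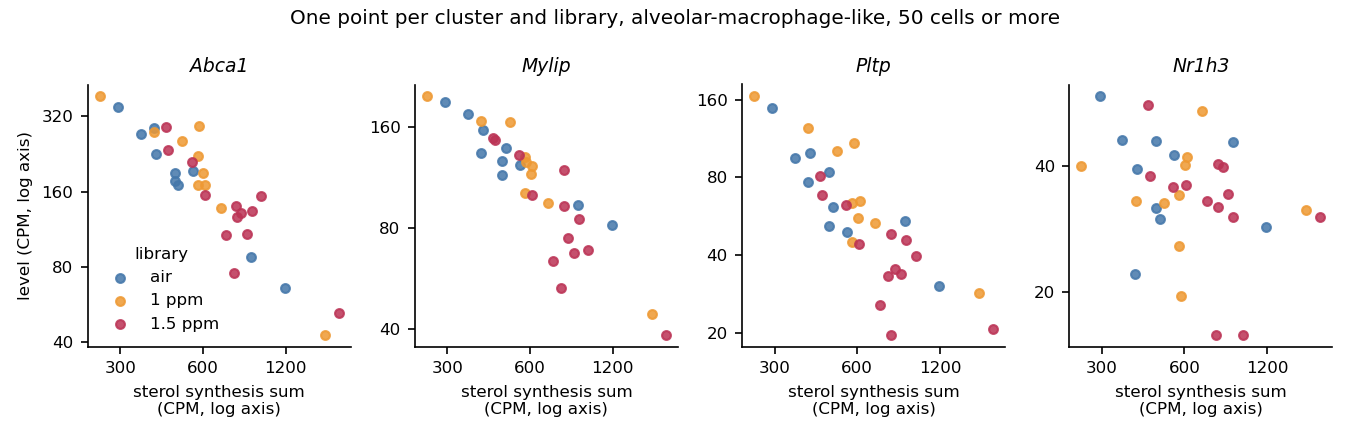
Level of members (CPM, log axis) against the summed level of sterol synthesis genes (CPM, log axis), 1 point per macrophage cluster and library of at least 50 cells, coloured by library. Abca1 had Pearson r = -0.92 and Nr1h3 r = -0.33 over the 33 points.

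Over 33 units of 1 cluster in 1 library, the Pearson r between log2(CPM + 1) of a member and of the synthesis sum was -0.92 for Abca1, -0.91 for Mylip, -0.85 for Pltp, -0.69 for Abcg1, -0.68 for Apoe, -0.67 for Apoc1, -0.53 for Lpcat3 and -0.33 for Nr1h3. Units of 1 library share depth, mice and free RNA, and units of 1 cluster share the genes that define it, so these values describe the units and carry no test. Among the members, Abca1 was most like Mylip (r = 0.91) and Pltp (0.86), and Nr1h3 and Lpcat3 were least alike (-0.14). The genes most like each member over the units were Sgms2 (0.84) and Lima1 (0.75) for Abca1, Cdc42ep3 (0.93) and Rara (0.92) for Abcg1, Dhrs3 (0.87) and Spns1 (0.84) for Pltp, and Acaa1b (0.75) and Reep3 (0.73) for Mylip. For Apoe they were Pcyox1 (0.65) and Sgms2 (0.61), for Apoc1 Gm56936 (0.69) and Zyx (0.65), for Nr1h3 Arpc2 (0.86) and Anxa5 (0.85), and for Lpcat3 Sla (0.88) and Tspan14 (0.87).

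Compared cluster by cluster, in the 12 clusters with at least 20 cells in both libraries, Pltp was lower at 1.5 ppm than in air in 12. Lpcat3 was lower in 11, Abcg1 and Mylip in 10, Nr1h3 in 9 and Abca1 in 8. Apoe was lower in 5 and Apoc1 in 4. The Pltp log2 ratios ran from -1.31 to -0.30 with a median of -0.65, and those of Abca1 from -0.91 to 0.94 with a median of -0.31. Holding the mix of clusters at that of air left Pltp alone at least 1.5-fold lower at 1.5 ppm (log2 ratio -0.65). Abca1 was then at -0.28, Abcg1 at -0.26 and Mylip at -0.39, and Apoe was above air by 1.03. That mix used the 11 of 13 clusters with at least 20 cells in every library, without the cluster led by Slc7a11. Its weights are air cell numbers. The clusters led by Gm27008 and Epcam (20 air cells, 1686 at 1.5 ppm) and by Il1b (39 and 711) therefore count for little in it.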

How the data were processed

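Bronchoalveolar lavage cells of 3 groups, 1 pooled library each, were analysed. Per the file headers, Cell Ranger 8.0.0 made the deposited UMI count of each gene in each barcode. The submitters' processing notes name GRCm39 (mm39) as the build. The counting of introns is not stated here, so the ratios were also centred on 200 genes of like span. Spans were from GENCODE vM21, matched by Ensembl identifier for 99.4% of 8713 genes.

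Barcodes with at least 500 UMIs, 300 genes and at most 10% mitochondrial UMIs were kept. Doublets were neither called nor removed. Cells were scaled to 10000 UMIs, log transformed, reduced to 30 components of 2000 variable genes without the members and listed genes, and clustered (Leiden, resolution 1.0) (scanpy 1.11.5, leidenalg 0.10.2, Python 3.11.15). Clusters took a class name, ending in "-like", from listed markers, each counted if found in 25% of cells at 25% of its highest cluster level, with at least 3 counted. That scoring was chosen with the data in view. UMIs were summed per library as CPM, with exact Poisson intervals for levels, exact conditional intervals for ratios and Clopper-Pearson intervals for shares, all at 95% and for counting error only. A log2 ratio adds 1 UMI to each sum. A gene was tested at 10 CPM or more in the higher library. The limit that a count of 0 allows is that of 3 counts.

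The members and lists were chosen with earlier results of these data known. All members are named, with up to 4 genes of each list by absolute log2 ratio at 1.5 ppm to air and the 2 genes most like each member by Pearson r among genes averaging at least 50 CPM; 1 gene of the SREBP2 list is not reported here. Intervals and thinning were tested on simulated data. Alternatives covered the cell filters, cell set, scaling, span, cluster mix, weighting and depth.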

Additional observations from a re-analysis of the deposited data

Results flagged for a closer look

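A member was set apart where it was at least 1.5-fold higher at 1.5 ppm than in air in some macrophage clusters and at least 1.5-fold lower in others, with intervals that did not include 1. The differences between clusters were not tested.

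Abca1 was 1.77 times its air level in the cluster led by the metallothionein genes Mt2 and Mt1 and by Fabp4, from 87.9 CPM in air to 155 CPM (interval 1.59 to 1.97). It was 1.92 times its air level in the cluster led by Slc7a11 and Hmox1, at 66.1 and 127 CPM (1.49 to 2.49). In 3 other clusters it was at least 1.5-fold lower: 0.571 in the cluster led by Ung, Hells and Dtl, 0.608 in the one led by H1f5, H2ac24 and Pclaf, and 0.531 in the one led by Gm27008, Lrrc4 and Insyn2b. Both clusters flagged for a higher Abca1 level at 1.5 ppm had air levels of Abca1 below 100 CPM. The sterol synthesis sum went from 898 CPM in air to 610 CPM at 1.5 ppm in the cluster led by Mt2. In the cluster led by Slc7a11 it went from 1193 to 798 CPM. In every other cluster ranked in both libraries that sum was higher at 1.5 ppm than in air. Whether the sum and the Abca1 level are linked was not tested. Abca1 was also above air in the cluster led by Acaa1b, from 226 to 234 CPM (ratio 1.03, 0.949 to 1.13). In the cluster led by Il1b, with 39 air cells, it went from 33.7 to 52.2 CPM.

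Abcg1 was 1.58 times its air level in the cluster led by Slc7a11 and Hmox1, from 274 CPM in air to 433 CPM (1.39 to 1.80). It was lower in the clusters led by Ung (0.612), by H1f5 (0.580) and by Cdc20 (0.645).

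Apoe was 2.80 times its air level in the cluster led by Dnah11 (18.8 and 52.7 CPM), 2.63 times in the one led by Acaa1b (26.4 and 69.5 CPM) and 2.12 times in the one led by Rgcc (34.6 and 73.2 CPM). In the cluster led by the mitosis genes Cdc20, Aspm and Cenpa it was at 0.341 of air, from 55 UMIs in air and 68 at 1.5 ppm.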

How the results depend on the processing

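No paired analysis was possible because each group is 1 library. Leaving out a replicate was likewise not possible. Depth limits Apoe, Apoc1 and Nr1h3, with 785 to 2963 UMIs per library in macrophages. Weighting by synthesis UMIs, leaving out C1q cells, leaving out the Epcam cluster and the sums of 7 members were chosen after seeing the data. Pltp was lower at 1.5 ppm than in air under all 14 alternatives (log2 ratio -1.26 to -0.65), Abca1 (-0.99 to -0.28), Abcg1 (-0.83 to -0.26) and Mylip (-1.05 to -0.39) likewise. With no minimum level, 15.4% of 22884 genes were at least 1.5-fold lower at 1.5 ppm than in air.

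Members at least 1.5-fold higher at 1 ppm than in air, 2 of 8, became 1 over all kept cells, over all barcodes without the mitochondrial limit, and at 2-fold. Members at least 1.5-fold lower at 1.5 ppm than in air, 4 of 8, became 1 with the cluster mix of air, 1 with synthesis UMIs weighted to air, 3 without cells of 3 or more G2 and M phase UMIs, 3 centred on genes of like span (Abcg1 at -0.58 and -0.55), and 1 at 2-fold. Members higher there, 0 of 8, became 1 with either the cluster mix or the weighting (Apoe). Members lower at 1.5 ppm than at 1 ppm, 6 of 8, became 2 under the cluster mix and 2 under the weighting. They became 4 without cells of 3 or more G2 and M phase UMIs and 2 at 2-fold. Apoe changed direction: at 1 ppm against air its log2 ratio was -0.013 over all barcodes, and at 1.5 ppm against 1 ppm it was 0.26 over all kept cells, 0.34 over all barcodes and 0.21 with the cluster mix of air. The C1q cluster is part of both cell sets, and the cause of the others was not tested. For the changes of setting other than 2-fold, the share of all genes was not taken beside these counts.

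The ratio of the high to the low synthesis group in air was 0.413 at 8000 UMIs per cell, 0.378 between the outer of 5 groups, 0.469 in cells of 2.5 to 4% mitochondrial UMIs, 0.506 without cells of 3 or more G2 and M phase UMIs and 0.380 for the 7 members other than Abcg1. At 1 ppm it was 0.414 at 8000 UMIs, 0.380 between the outer of 5 groups and 0.352 for 7 members. At 1.5 ppm it was 0.454, 0.438, 0.505, 0.447 and 0.377 in the same order of alternatives as for air. Within the low group, 1.5 ppm over air was 0.748 at 2500 UMIs and 0.792 for 7 members. It was 0.830 without cells of 3 or more G2 and M phase UMIs. Within the middle group it was 0.672 with 5 groups, 0.749 without those cells and 0.735 for 7 members. Within the high group it was 0.884, 0.734 and 0.786 in the same order.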

Other observations

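Cells in clusters without a class name also held the members. In the cluster of 373 cells with a median of 1106 UMIs, Abcg1 was at 1232 CPM (1145 to 1324) and Apoe at 129 CPM (102 to 161), with Abca1 at 106 CPM (81.7 to 136). Of these 373 cells 290 were from 1.5 ppm, and 16 had an Apoe UMI. In another of 249 cells with a median of 2077 UMIs, Apoe was at 72.8 CPM (54.1 to 96.0), Abca1 at 29.1 CPM and Abcg1 at 489 CPM. Of these 249 cells 248 were from 1.5 ppm and 0 from air, and 17 had an Apoe UMI. Migratory-dendritic-like cells, 89 in all, held Abcg1 at 390 CPM (352 to 431) and Abca1 at 27.3 CPM, with 0 Apoc1 UMIs.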
